A study of Mus musculus with 36 samples.

Results

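Gene expression in hippocampal field CA3 was compared with that in field CA1, over all 18 libraries labelled with these tissues, 9 of each, out of 36 libraries in the series. Libraries were chosen by the tissue label, with no measured value used. Every library came from wild-type mice of the BL/6 background, whose age and sex the labels do not give. The mice had been housed singly and handled for 3 minutes a day over 5 days. Each field has 3 home cage libraries, 3 from a group that underwent context exposure and 3 from a foot shock group, which the labels name Fear. Tissue was dissected 90 minutes after the behaviour, and polyA RNA was extracted from it, so each library holds every cell type of the dissected piece. A difference can thus reflect the number of cells of a type or the RNA per cell, which cannot be told apart in these data. The labels do not say which libraries came from the same mouse, so a p-value here reflects only how far these libraries scatter, and that scatter may be partly technical.

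CA3 and CA1 are successive stages of the hippocampal circuit. Pyramidal cells of CA3 receive the mossy fibres of dentate granule cells, excite each other through recurrent collaterals, and project through the Schaffer collaterals to CA1, the main output field toward the subiculum and neocortex. The mossy fibre synapse is known for its kainate receptors and for a presynaptic form of long-term potentiation, the Schaffer collateral synapse for a form that depends on NMDA receptors.

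Library totals ran from 21915121 to 59356516 counts in CA1 (median 27632275) and from 23826481 to 34063047 in CA3 (median 27805096). Levels are given as CPM, counts scaled to a common library total, after TMM scaling, a correction for library composition. The labels were checked against marker genes of each cell type, summed within each library. The 14 CA3 pyramidal markers summed to 832 to 1360 CPM in CA3 (median 1140) and 196 to 567 CPM in CA1 (median 264). The 8 CA1 pyramidal markers summed to 602 to 1880 CPM in CA1 (median 1400) and 176 to 469 CPM in CA3 (median 302). Neither sum overlapped between the fields, as the labels of all 18 libraries would have it, and each field also held the other's markers above 0. The lists were chosen with earlier results of these data known, so this is not an independent check of the labels. The CA1 libraries were uneven: home cage 2, home cage 3 and fear 2 had CA1 marker sums of 602, 683 and 741 CPM, against 1380 to 1880 CPM in the other 6, and CA1 home cage 3 and fear 2 had the 2 highest CA3 marker sums of that field, 449 and 567 CPM. On the first principal component, which held 27.4% of the variance, CA1 libraries lay between -51.4 and -20.2 and CA3 libraries between 1 and 67, with CA3 home cage 2 lowest.

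**Figure D1:**
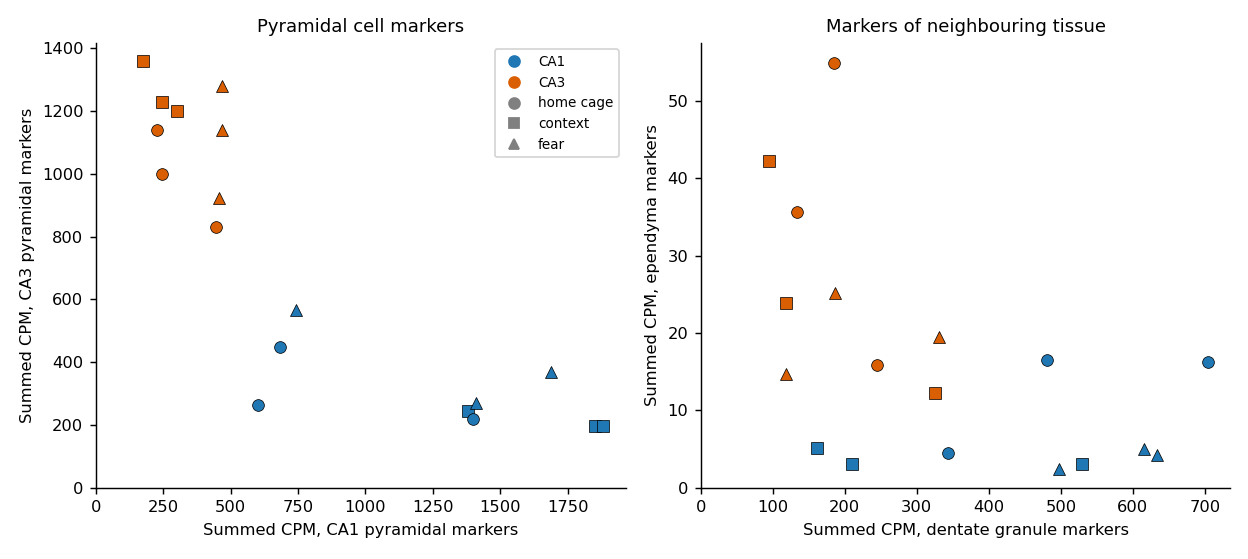
Summed CPM of marker lists, with 1 point per library, coloured by field and shaped by condition. The left panel sets CA1 pyramidal against CA3 pyramidal markers, where the fields form separate groups (CA1 libraries at 602 to 1880 CPM of CA1 markers, CA3 libraries at 176 to 469). The right panel sets dentate granule against ependyma markers, with dentate granule sums (Lct included) of 162 to 705 CPM in CA1 and 94.4 to 331 in CA3.

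CA3 and CA1 differed in 4455 of 16987 tested genes at an adjusted p under 0.05 (edgeR's quasi-likelihood test with condition as a covariate, Benjamini-Hochberg adjustment). Of these, 2634 genes were higher in CA3, which is 15.5% of those tested, and 1821 were higher in CA1, 10.7%. At least a 2-fold difference was reached by 725 of the genes higher in CA3 and 352 of those higher in CA1. The 9 libraries of each field did not overlap at all for 376 genes higher in CA3 (2.21% of those tested) and 152 higher in CA1 (0.895%). The balance of the calls depended on a correction for GC content and transcript length: 59.1% of called genes were higher in CA3 without it and 44.2% with it, when 2605 genes (15.3%) were called higher in CA3 and 3283 (19.3%) higher in CA1. Without the 3 CA1 libraries of low CA1 marker sum, 2431 and 2288 genes were called, 51.5% of them higher in CA3. Without context 2 and home cage 2 of both fields, 2730 and 2758 genes were called, 49.7% of them higher in CA3. In the home cage libraries alone, with 3 against 3, 245 genes (1.53% of 15990 tested) were higher in CA3 and 163 (1.02%) higher in CA1. Leaving out 1 of these 6 libraries gave 35 to 252 and 12 to 126 calls, fewest without CA3 home cage 1.

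Among genes of a mean of at least 4 log2 CPM, the 14 largest differences toward CA3 with no overlap between the fields were in Slit2, Ccbe1, Cpne4, Spock1, Grik4, Slc9a4, Nrip3, Amigo2, Lsm11, Neto1, Frzb, Tgfb2, Bok and Rerg, with log2 differences from 2.87 down to 2.18. Slit2 encodes a secreted guidance cue that binds Robo receptors. It was at 5.14, 11.6 and 21.6 CPM (lowest, median and highest library) in CA1 and at 43.2, 98.3 and 137 CPM in CA3, a 7.33-fold difference (log2 difference 2.87 ± 0.28, SE, edgeR adjusted p = 8.81e-07). The lowest CA3 library, home cage 2, was still above the highest CA1 library, home cage 3. Tgfb2 encodes the growth factor TGF-beta 2, Frzb a secreted Wnt antagonist, Spock1 a proteoglycan of the extracellular matrix and Ccbe1 a secreted matrix protein of lymphatic development. Spock1 had 5.83, 13.2 and 38.1 CPM in CA1 and 67.7, 95.4 and 175 CPM in CA3, a 5.89-fold difference (log2 2.56 ± 0.21, edgeR adjusted p = 1.57e-07). Tgfb2 was 4.60-fold higher in CA3 and Frzb 4.74-fold, and neither overlapped between the fields.

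Grik4 and Neto1 belong to kainate receptors, as the GluK4 subunit and an auxiliary subunit. Grik4 (GRCm38 chromosome 9, 42518135 to 42944493, minus strand) was at 11.7, 16.2 and 47.9 CPM in CA1 and 78.2, 131 and 156 CPM in CA3, 5.85-fold higher (log2 2.55 ± 0.23, edgeR adjusted p = 4.71e-07). Its highest CA1 library was fear 2, the library with the highest CA3 marker sum of that field. Neto1 was at 26.5, 47.7 and 67.8 CPM in CA1 and 104, 236 and 320 CPM in CA3 (log2 2.25 ± 0.21, edgeR adjusted p = 4.62e-07). Within the other members of this group are Nrip3, a protein that interacts with nuclear receptors, at a median of 82 CPM in CA1 and 506 CPM in CA3, Bok, a member of the BCL2 family, at 14.3 and 98.5 CPM, and Lsm11, a component of the U7 particle that processes histone mRNA, at 24.3 and 128 CPM. Slc9a4, a sodium-proton exchanger, had the smallest adjusted p of the 14 genes, 1.94e-08, with 6.72 to 15.5 CPM in CA1 and 40.7 to 87.5 CPM in CA3. Amigo2, an adhesion protein known from CA2 and CA3, had medians of 10.6 and 67.1 CPM, 5.00-fold higher in CA3.

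Toward CA1, the corresponding 14 genes were Wfs1, Ndst4, Adgrl2, Lct, Ccn3, Doc2b, Kcnh7, Mpped1, Zfhx4, Ndst3, Arhgap12, 1190002N15Rik, Dbpht2 and Pantr1, with log2 differences from -2.88 to -1.52. Wfs1, which encodes a protein of the endoplasmic reticulum and marks CA1 pyramidal cells, was at 121, 369 and 508 CPM in CA1 and at 17.1, 31.0 and 97.1 CPM in CA3, 7.37-fold higher in CA1 (log2 -2.88 ± 0.38, edgeR adjusted p = 3.04e-05). The 3 lowest CA1 values, 121, 156 and 196 CPM, were in home cage 2, home cage 3 and fear 2, and the highest CA3 value was in home cage 2. Ndst4 and Ndst3 encode enzymes that sulphate heparan sulphate chains. Ndst4 was at 26.1, 54.5 and 67.9 CPM in CA1 and 3.33, 8.29 and 16.2 CPM in CA3 (log2 -2.52 ± 0.26, edgeR adjusted p = 1.40e-06). Ndst3 had medians of 66.2 CPM in CA1 and 20.9 CPM in CA3. Both enzymes were thus higher in CA1 in all 9 libraries than in any CA3 library.

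Adgrl2, the adhesion receptor latrophilin 2, was at 49.1, 139 and 222 CPM in CA1 and 9.09, 21.8 and 30.9 CPM in CA3 (log2 -2.48 ± 0.29, edgeR adjusted p = 8.93e-06). Doc2b, a calcium sensor of vesicle release, had medians of 237 CPM in CA1 and 59.2 CPM in CA3, and Kcnh7, a potassium channel of the Erg family, 171 and 40.9 CPM. Zfhx4 encodes a zinc finger and homeodomain protein and was 3.57-fold higher in CA1. Pantr1, a long noncoding RNA next to Pou3f3, was 2.87-fold higher in CA1, with medians of 57.5 and 18.4 CPM. Lct, a lactase that also stands in the dentate granule list, was at 75.8 to 145 CPM in CA1 and 6.99 to 40.5 CPM in CA3. With the mean of the dentate granule markers as a covariate, the log2 difference of Lct was -2.08 in place of -2.42 (edgeR adjusted p = 7.45e-05). Lct is itself part of that mean, so it was adjusted partly for its own values.

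**Figure D2:**
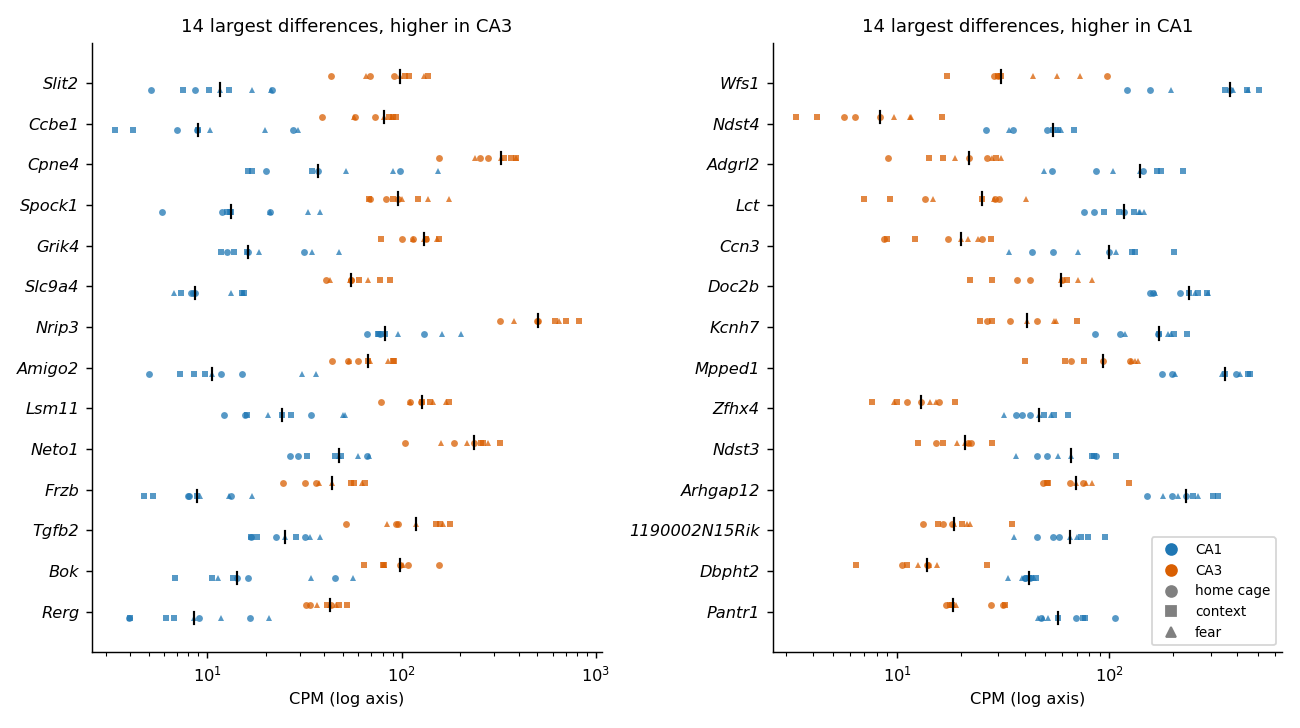
CPM on a log axis in each of the 18 libraries for the 14 genes of largest difference in each direction, with points coloured by field and shaped by condition and a black bar at the median of each field's 9 libraries. The fields separate for every gene shown, which the choice of genes requires. The medians of Slit2 were 11.6 CPM in CA1 and 98.3 in CA3, and those of Wfs1 369 and 31.0.

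Promoter sequences of genes that led each direction are shown for 3 of these genes, because their windows hold one of the motifs searched. Windows from 250 bases before to 50 after a start were taken from RefSeq (GRCm38.p6, 5' to 3' on the gene's strand), which gave 10 windows for 9 of the 14 genes higher in CA3 and 9 windows for 7 of the 14 higher in CA1. Capitals mark matches on either strand to TATAAA in Slit2, to the E-box CAGCTG in Frzb, and to the E-box CAGATG (as its reverse complement) in Wfs1. The windows were chr5:47982905-47983204 on the plus strand for Slit2, chr2:80447347-80447646 on the minus strand for Frzb and chr5:36988933-36989232 on the minus strand for Wfs1.
Slit2: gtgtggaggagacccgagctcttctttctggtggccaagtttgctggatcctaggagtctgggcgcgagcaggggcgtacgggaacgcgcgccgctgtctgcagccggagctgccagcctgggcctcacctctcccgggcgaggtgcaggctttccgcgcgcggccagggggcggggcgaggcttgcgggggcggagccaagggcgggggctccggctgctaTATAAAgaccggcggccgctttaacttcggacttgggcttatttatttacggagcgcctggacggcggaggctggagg
Frzb: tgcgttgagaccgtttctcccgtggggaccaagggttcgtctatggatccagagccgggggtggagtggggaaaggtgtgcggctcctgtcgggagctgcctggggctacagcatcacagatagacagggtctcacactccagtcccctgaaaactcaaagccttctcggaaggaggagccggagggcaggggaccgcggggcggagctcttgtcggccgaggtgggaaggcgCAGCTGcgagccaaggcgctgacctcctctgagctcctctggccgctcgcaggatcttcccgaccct
Wfs1: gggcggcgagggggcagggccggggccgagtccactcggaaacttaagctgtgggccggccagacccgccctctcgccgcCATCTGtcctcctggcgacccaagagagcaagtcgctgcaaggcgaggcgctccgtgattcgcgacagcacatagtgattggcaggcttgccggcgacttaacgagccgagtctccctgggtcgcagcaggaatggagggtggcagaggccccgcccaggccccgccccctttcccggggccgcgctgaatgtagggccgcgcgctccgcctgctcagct

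Searched on both strands of all 32851 RefSeq windows, TATAAA was found in 13.6%, CAGCTG in 16.3%, CAGATG in 17.2%, the homeodomain core TAATTA in 5.29%, the POU octamer ATGCAAAT in 1.74% and the cyclic AMP response element TGACGTCA in 1.79%. None of these motifs contains another. TATAAA lay in 2 of the 10 windows of genes higher in CA3 (Slit2 and Tgfb2) and in 1 of the 9 of genes higher in CA1 (Adgrl2). CAGCTG lay in 1 window of the first kind (Frzb) and CAGATG in 2 of the second (Ndst3 and Wfs1). TAATTA was found in 1 window, of Ndst3, and neither ATGCAAAT nor TGACGTCA was found in any of the 19.

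The differences were then set against the home cage libraries, which are separate from the 12 context and fear libraries. In the 12 libraries, 2433 genes (14.9% of 16301 tested) were higher in CA3 and 2205 (13.5%) higher in CA1. Of the first, 2379 were tested in the home cage libraries, where 2153 (90.5%) had the same direction, 226 were called and 0 were called in the opposite direction. Of the second, 2188 were tested, 1752 (80.1%) had the same direction, 140 were called and 0 were called in the opposite direction. Over all genes, 49.8% were higher in CA3 and 50.2% lower in CA3 in the home cage libraries. Median log2 differences of the genes higher in CA3 were 0.56 in the 12 libraries and 0.40 in the home cage, and those of the genes higher in CA1 were -0.60 and -0.28. The genes were chosen in the 12 libraries, so the first value of each pair carries that choice. Conversely, 226 of 244 home cage calls higher in CA3 and 140 of 163 higher in CA1 were also called in the 12 libraries.

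Among the 14 genes of largest difference toward CA3, home cage log2 differences ran from 1.65 to 2.66 and 11 were called in the home cage alone. The other 3 were Ccbe1, Cpne4 and Rerg, with edgeR adjusted p of 0.0813, 0.0756 and 0.055. Toward CA1 they ran from -2.49 to -1.46 and 12 were called, all but Wfs1 (adjusted p = 0.111) and Mpped1 (0.0585). None of the 28 genes overlapped between the 3 and 3 home cage libraries, which the choice of genes over all 18 libraries requires. In the 6 fear libraries alone, 25 of the 28 were called, without Amigo2, Bok and Ccn3. The home cage and fear libraries were among those used to choose the 28 genes, so these values carry that choice.

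**Figure D3:**
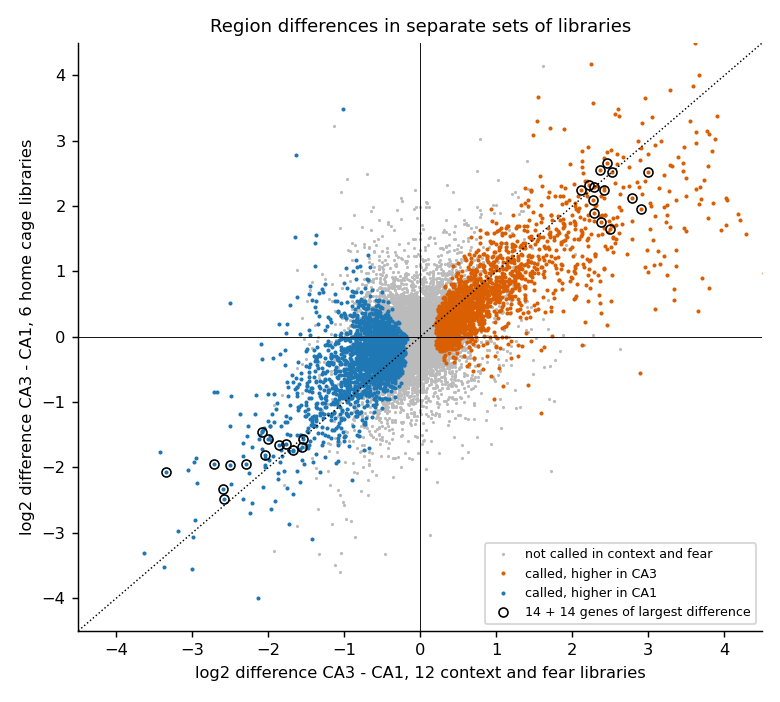
Log2 difference between CA3 and CA1 in the 6 home cage libraries (vertical axis) against the 12 context and fear libraries (horizontal axis), 1 point per gene for 15778 genes, of which 22 lie outside the plotted range. Points are coloured by the call in the 12 libraries, open circles are the 28 genes of largest difference, and the dotted line marks equal values. All 28 circles lie in the quadrants of equal sign, which follows from choosing genes without overlap over all 18 libraries.

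Marker genes of the pyramidal cell types were also looked at gene by gene, from lists chosen with earlier results of these data known. Of 14 CA3 markers, 13 were higher in CA3 and 10 did not overlap between the fields, against 15.5% and 2.21% of all genes. Their median log2 difference was 1.77, against 0.00 over all tested genes. Socs2, a suppressor of cytokine signalling, was at 1.82, 3.74 and 12.9 CPM in CA1 and 26.3, 41.1 and 63.3 CPM in CA3 (log2 3.10 ± 0.37, edgeR adjusted p = 1.00e-05), and Prss35, a serine protease, had medians of 1.78 and 22.6 CPM. The exception was Coch, at 1.78 to 13.3 CPM in CA1 and 1.35 to 4.54 CPM in CA3 (log2 -0.75 ± 0.29, edgeR adjusted p = 0.0617), which was called higher in CA1 with the GC and length correction. All 8 CA1 markers were higher in CA1, against 10.7% of all genes, with a median of -1.82. Of these markers 3 (Wfs1, Mpped1 and Ccn3) did not overlap, against 0.895% of all genes. Within the home cage libraries alone, 8 of the 14 CA3 markers were called and 2 of the 8 CA1 markers, Man1a and Ccn3, against 1.53% and 1.02% of all genes, with medians of 1.68 and -1.45. Of 11 markers of CA2, the narrow field between them, 6 were higher in CA3 and 0 in CA1, against 15.5% and 10.7% of all genes. The 6 were Amigo2, Ccdc3, Necab2, Stard5, Actn2 and Avpr1b. Avpr1b was near the floor, at 0 to 1.7 CPM in CA1 and 0.986 to 2.54 CPM in CA3. It was not called in the fear libraries alone (0.53, edgeR adjusted p = 0.753). The home cage libraries alone gave 5 CA2 markers higher in CA3 and 0 in CA1, against 1.53% and 1.02% of all genes. Necab2, a neuronal calcium-binding protein, was at 16.7 to 39.2 CPM in CA1 and 43.3 to 127 CPM in CA3. Rgs14 and Pcp4, which are widely used to mark CA2, had log2 differences of 0.08 ± 0.17 and 0.01 ± 0.32 and were not called.

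Dentate granule markers went the other way. Of 9 markers, 3 were called, all higher in CA1 (Plk5, Lct and Trpc6), against 10.7% of all genes. The home cage libraries alone gave 5 calls higher in CA1 (Stxbp6, Lct, Tdo2, Trpc6 and Glis3), against 1.02% of all genes. The sum of the 9 markers was 162 to 705 CPM in CA1 (median 497) and 94.4 to 331 CPM in CA3 (median 185), with overlap. Lct, which is also among the 14 genes of largest difference toward CA1, did not follow the other markers in every library. In CA1 context 2 it held 93.9 of the 162 CPM, with Prox1 at 22.4 CPM and Dsp at 0.841 CPM. The sum is therefore not a measure of granule cells alone. Prox1, the defining transcription factor of granule cells, was at 22.4, 123 and 182 CPM in CA1 and 24.8, 41.1 and 108 CPM in CA3 (log2 -0.95 ± 0.41, edgeR adjusted p = 0.102). With the GC and length correction 6 of the 9 markers, Prox1 among them, were called higher in CA1, against 19.3% of all genes. No marker of the list was at 0 counts in either field. With the mean of these markers as a covariate, 1764 genes (10.4%) were called higher in CA3 and 1238 (7.29%) higher in CA1, and 2696 of the 4455 genes called without it kept their call and direction. The 28 genes of largest difference were all called in that fit. Of the 9 markers, which make up the covariate, 2 were called higher in CA3 there (Dsp and Glis3) and 2 higher in CA1 (Lct and Trpc6). The part of dentate tissue in these differences was not tested beyond it.

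**Figure D4:**
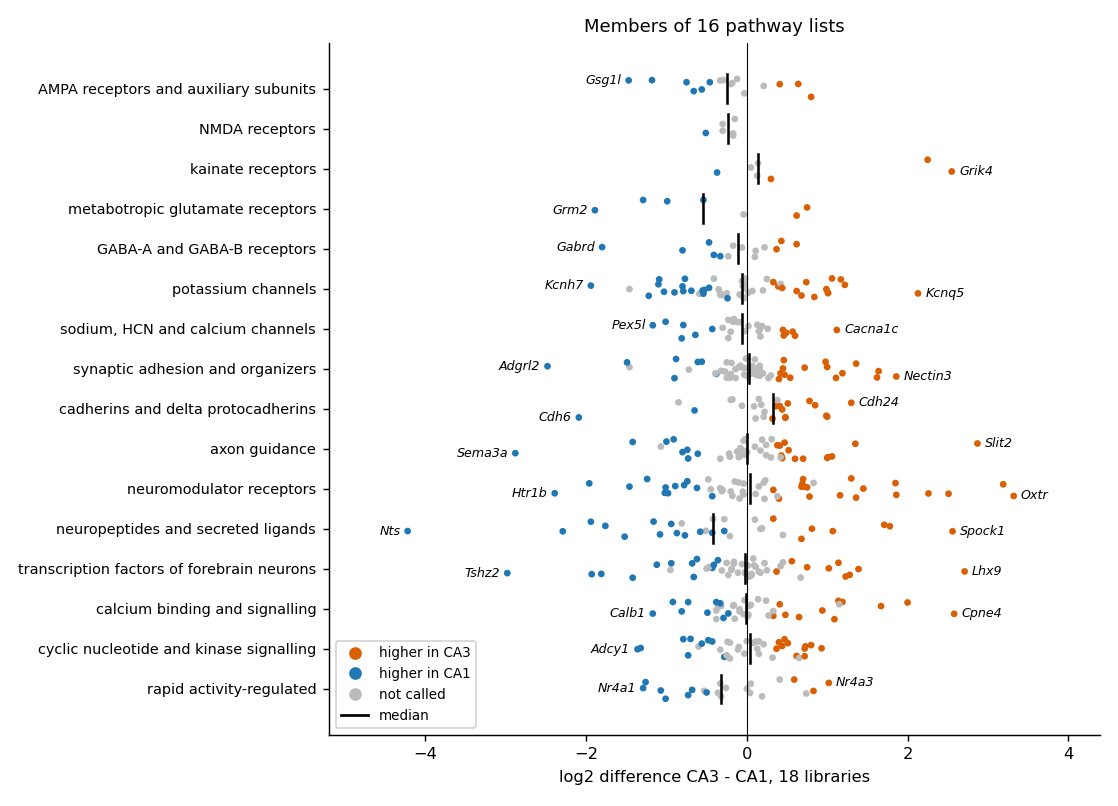
Log2 difference between CA3 and CA1 over 18 libraries for each tested member of 16 pathway lists, 1 point per gene, coloured by the call, with a black bar at the list's median and the outermost called member named where its difference is at least 1 in size. Points are spread vertically within a list only for legibility. Oxtr at 3.32 lies farthest toward CA3 and Nts at -4.22 farthest toward CA1.

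The counts in the lists that follow stand beside 15.5% of all tested genes called higher in CA3 and 10.7% higher in CA1. Counts with the GC and length correction stand beside 15.3% and 19.3%, as calls over all genes also moved toward CA1 with it. In the glutamate receptor lists, kainate receptors held the largest differences. Of 7 members, 3 were higher in CA3 (Grik4, Neto1 and Neto2) and 1 in CA1 (Grik3), with a list median of 0.14. The Neto2 and Grik3 differences were small, 0.30 ± 0.10 and -0.37 ± 0.13. With the dentate covariate neither was called, Neto2 at an unchanged 0.30 (edgeR adjusted p = 0.118) and Grik3 at -0.14 (0.535). Each also lost the call when single libraries were left out, Neto2 for 12 of the libraries and Grik3 for 4. Grik2, the main pore-forming subunit, did not pass (log2 0.14 ± 0.14), except with the dentate covariate (0.47, adjusted p = 0.0258). Of 16 AMPA receptor genes, 3 were higher in CA3 (Shisa6, Cacng2 and Gria4) and 6 in CA1, and the pore subunits Gria1, Gria2 and Gria3 did not pass (-0.20, -0.12 and -0.18). With the GC and length correction those 3 were called higher in CA1 as well, at -0.32, -0.19 and -0.26, and the list counts became 3 and 9. Gsg1l, an auxiliary subunit, was at 15.4, 23.6 and 34.5 CPM in CA1 and 6.12, 8.87 and 13.8 CPM in CA3 (log2 -1.47 ± 0.14, edgeR adjusted p = 3.10e-07). Cnih3 (cornichon 3), Cacng3 and Shisa7, all auxiliary proteins, were likewise higher in CA1, with log2 differences of -1.18, -0.75 and -0.66. Shisa6, of the same family as Shisa7, was higher in CA3, with medians of 241 CPM in CA1 and 462 CPM in CA3. Without that correction, the members that differed in this list were auxiliary subunits and Gria4, in both directions.

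Of 6 NMDA receptor genes tested, 1 was called, Grin2c, higher in CA1 (log2 -0.51 ± 0.16). It lost the call without CA1 context 1 or CA3 context 3, and with the dentate covariate (-0.56, edgeR adjusted p = 0.0806). The home cage alone showed no difference of Grin2c (-0.02, edgeR adjusted p = 0.981). With the GC and length correction 3 members were called higher in CA1. Metabotropic receptors were divided. Toward CA1, Grm2, Grm3, Grm4 and Grm8 were higher, the last named after its values were seen, and toward CA3, Grm7 was. The home cage alone gave 0 calls among the 7 metabotropic receptors, with Grm4 at -0.33. Grm2, a presynaptic receptor prominent on mossy fibres, was at 3.67, 26.1 and 45.3 CPM in CA1 and 0.673, 6.27 and 18.7 CPM in CA3. Its log2 difference was -1.89 ± 0.50 (edgeR adjusted p = 0.00981), and -0.62 with the dentate covariate (adjusted p = 0.172).

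Of 14 GABA receptor genes, 3 were higher in CA3 (Gabbr2, Gabrb1 and Gabra2) and 5 in CA1, with a median of -0.12, and 2 and 7 with the GC and length correction. Gabrd, the delta subunit of extrasynaptic receptors, was at 20.5, 30.1 and 37.8 CPM in CA1 and 2.45, 9.39 and 15.5 CPM in CA3, with no overlap (log2 -1.80 ± 0.21, edgeR adjusted p = 4.47e-06). Gabra2 had a difference of 0.37 ± 0.09 in the opposite direction, and Gabrb1 one of 0.43 ± 0.15, which lost the call under both other scalings, with the dentate covariate (0.38, edgeR adjusted p = 0.188) and on leaving out any 1 of 14 of the libraries.

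Potassium channels differed in 29 of 50 members, 14 toward CA3 and 15 toward CA1, against 15.5% and 10.7% of all genes, with a median of -0.06. Kcnq5, a subunit of the M-current channel, was at 29.3, 60.6 and 90.5 CPM in CA1 and 107, 265 and 366 CPM in CA3, 4.39-fold higher without overlap (log2 2.13 ± 0.15, edgeR adjusted p = 2.37e-08). Kcna1, a low-threshold axonal channel, and Kcnv1 and Kcng2, modifier subunits, were also higher in CA3, by 1.17, 1.22 and 1.06 on the log2 scale. Toward CA1, Kcnh7 led, followed by Kcnab1, a beta subunit at 165 to 390 CPM in CA1 and 87.9 to 176 CPM in CA3, and by the inward rectifier Kcnj4 and the Elk family channel Kcnh3. Kcnj4 and Kcnh3 were at -0.61 and -0.46 in the home cage alone and not called there. Of 28 sodium, HCN and calcium channel genes, 6 were higher in each field. Pex5l, which encodes the HCN channel partner TRIP8b, was at 234, 479 and 561 CPM in CA1 and 137, 183 and 231 CPM in CA3 (log2 -1.17 ± 0.13, edgeR adjusted p = 8.79e-07). The sodium channel beta subunits Scn4b and Scn3b were higher in CA1, by 2.01-fold and 1.76-fold, and the pore subunits Cacna1c, Cacna1a and Scn1a were higher in CA3, Cacna1c 2.18-fold. Both kinds of subunit went both ways: the pore subunit Cacna1g was higher in CA1 (-0.79 ± 0.27) and the auxiliary subunit Cacna2d3 in CA3 (0.57 ± 0.10). Cacna1g lost its call with the dentate covariate (edgeR adjusted p = 0.0513) and on leaving out any 1 of 13 of the libraries. Its difference was -0.07 in the home cage (edgeR adjusted p = 0.952) and -1.87 in context.

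Genes of synaptic adhesion were called more often toward CA3, with 15 of 55 higher in CA3 and 7 in CA1, against 15.5% and 10.7% of all genes. With the GC and length correction these counts were 18 and 13, against 15.3% and 19.3% of all genes. Nectin3, an adhesion protein of puncta adherentia, was at 24.6, 30.4 and 47.9 CPM in CA1 and 78.4, 121 and 164 CPM in CA3 (log2 1.86 ± 0.16, edgeR adjusted p = 1.44e-07). Its partner Nectin1 was 2.56-fold higher in CA3, at 12.4 to 28.7 and 26.8 to 64.0 CPM. Flrt3, a postsynaptic ligand of latrophilins, was at 12.9 to 38.9 CPM in CA1 and 41.5 to 111 CPM in CA3 (log2 1.64 ± 0.20), the direction opposite to that of the latrophilin Adgrl2. Toward CA1, C1ql3 (a C1q-like ligand) had a difference of -1.49 ± 0.36, and -0.86 with the dentate covariate, and Lrrtm3 one of -0.88 ± 0.16. Of 25 cadherins and delta protocadherins, 12 were higher in CA3 and 2 in CA1 (Cdh6 and Cdh4), with a median of 0.32. Cdh24 (1.30 ± 0.16) and Pcdh9 (0.99 ± 0.10) were examples toward CA3, and Cdh6, at 2.05 to 13.1 CPM in CA1 and 0.732 to 4.01 CPM in CA3, toward CA1 (-2.09 ± 0.29). Cdh9, known from mossy fibre synapses, was called higher in CA3 (1.00 ± 0.31, edgeR adjusted p = 0.0228), and not without CA1 context 1.

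Cbln4 and Neo1, the ligand and receptor named in the series title, are given with their values in full. Cbln4 (GRCm38 chromosome 2, 172036233 to 172043466, minus strand), a secreted cerebellin, was at 1.77, 4.66 and 5.59 CPM in CA1 and 7.70, 11.1 and 18.1 CPM in CA3, with no overlap (log2 1.62 ± 0.18, edgeR adjusted p = 1.43e-06). In the home cage alone its difference was 1.72 (adjusted p = 0.054), from 1.79, 1.77 and 4.77 CPM in CA1 and 9.87, 7.70 and 9.93 CPM in CA3. Neo1 was at 92.9 to 139 CPM in CA1 and 85.6 to 157 CPM in CA3 (log2 0.06 ± 0.07, edgeR adjusted p = 0.578). Cbln2 was higher in CA1 (-0.90 ± 0.23), and with the dentate covariate it was at -0.68 and not called (edgeR adjusted p = 0.098).

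Of 45 axon guidance genes, 13 were higher in CA3 and 8 in CA1, against 15.5% and 10.7% of all genes. Robo1, a receptor of Slit2, was 2.08-fold higher in CA3 (25.2, 52.3 and 67.9 CPM in CA1 and 57.6, 115 and 143 CPM in CA3, edgeR adjusted p = 9.73e-07), and Robo2 did not pass (-0.03 ± 0.12). Sema3a, a secreted repellent, was at 6.30, 9.50 and 18.4 CPM in CA1 and 0.258, 1.23 and 3.54 CPM in CA3, 7.35-fold higher in CA1 without overlap (log2 -2.88 ± 0.31, edgeR adjusted p = 1.40e-06). Sema3d, of the same class, was higher in CA3 (1.35 ± 0.15), as was the semaphorin receptor Nrp2 (1.01 ± 0.14), whereas the semaphorin receptor Plxnd1 and the ephrin receptors Ephb3 and Epha10 were higher in CA1. Ligands and receptors of 1 family therefore differed in both directions.

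Receptors for neuromodulators showed the largest single difference of the pathway lists toward CA3. Of 50 tested, 18 were higher in CA3 and 12 in CA1. Oxtr, the oxytocin receptor (GRCm38 chromosome 6, 112473683 to 112489943, minus strand), was at 0.762, 1.55 and 3.71 CPM in CA1 and 7.31, 14.9 and 29.7 CPM in CA3, 9.96-fold higher (log2 3.32 ± 0.29, edgeR adjusted p = 2.21e-07). Its 2 highest CA1 values, 3.05 and 3.71 CPM, were in fear 2 and fear 3. Its home cage difference was 2.91 (adjusted p = 0.00367). Serotonin receptors were split: Htr7 (medians of 1.93 CPM in CA1 and 13.4 CPM in CA3) and Htr2c were higher in CA3, by 2.51 and 1.86 on the log2 scale, and Htr1a and Htr1b were higher in CA1, by -1.24 ± 0.13 and -2.39 ± 0.31. Npy2r, the presynaptic neuropeptide Y receptor, was at 23.8 to 70.2 CPM in CA1 and 94.6 to 232 CPM in CA3 (1.85 ± 0.16). Chrna5, a nicotinic subunit, had medians of 14.2 CPM in CA1 and 3.20 CPM in CA3. Drd1 was called higher in CA1 (-1.46 ± 0.42), but not with the dentate covariate (-0.29, adjusted p = 0.601).

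Of 29 neuropeptides and secreted ligands, 7 were higher in CA3 and 13 in CA1, with a median of -0.42. Nptxr and Nptx1, the neuronal pentraxin receptor and pentraxin 1, which cluster AMPA receptors, were both higher in CA3 without overlap. Nptxr was at 236, 419 and 597 CPM in CA1 and 843, 1470 and 2190 CPM in CA3 (log2 1.78 ± 0.16, edgeR adjusted p = 1.85e-07), and Nptx1 had medians of 377 and 804 CPM. Chgb, chromogranin B of dense-core vesicles, was at 212 to 617 CPM in CA1 and 791 to 1620 CPM in CA3. Toward CA1, the opioid precursor Penk was at 29.2 to 60.4 CPM and at 11.8 to 26.7 CPM in CA3 (-1.16 ± 0.15). Pdyn, the precursor of dynorphin in mossy fibres, was also higher in CA1 (-1.52 ± 0.38, edgeR adjusted p = 0.00661), with -0.51 and adjusted p = 0.0761 with the dentate covariate.

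Of 49 transcription factors of forebrain neurons, 9 were higher in CA3, a share near the 15.5% of all genes, and 12 in CA1, against 10.7%. Lhx9, a LIM homeodomain factor, was at 1.18, 4.54 and 11.3 CPM in CA1 and 16.9, 29.3 and 46.7 CPM in CA3 (log2 2.71 ± 0.39, edgeR adjusted p = 7.41e-05). Trps1, St18 and Sox5 were higher in CA3 as well, by 1.39, 1.28 and 1.23. Bcl11b (also called Ctip2) was at 103, 193 and 237 CPM in CA1 and 40.1, 64.9 and 97.0 CPM in CA3 (-1.42 ± 0.15), and the POU factor Pou3f1 had a difference of -1.81 ± 0.31. Tshz2 had the largest difference of the list toward CA1 (-2.98 ± 0.63), with 2.69, 18.2 and 61.7 CPM in CA1 and 2.36, 3.04 and 5.42 CPM in CA3, which overlapped. Neurod2, a factor of pyramidal neurons in general, did not pass (0.25 ± 0.13), except with the GC and length correction (0.30, adjusted p = 0.0213).

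Calcium signalling genes were called 11 times toward CA3 and 9 times toward CA1 of 40. With the GC and length correction the counts were 10 and 12, when 15.3% and 19.3% of all genes were called. Cpne4 and Cpne7, calcium-dependent membrane-binding copines, were higher in CA3, by 2.58 and 1.67, and Cpne8 was higher in CA1 (-0.81 ± 0.14). Cpne4 was at 16.2 to 154 CPM in CA1 and at 155 to 390 CPM in CA3, with the fields nearly touching. Calb1, calbindin, was at 61.7, 103 and 150 CPM in CA1 and 21.8, 40.6 and 89.9 CPM in CA3 (-1.17 ± 0.25, and -0.62 with the dentate covariate). Itpr1, the calcium release channel gated by inositol trisphosphate, was at 372 to 931 CPM in CA1 and 254 to 547 CPM in CA3 (-0.92 ± 0.13). Of 38 genes of cyclic nucleotide and kinase signalling, 11 were higher in CA3 and 9 in CA1. Adcy1, a calcium-activated adenylyl cyclase, was at 1460, 1830 and 2410 CPM in CA1 and 528, 794 and 984 CPM in CA3, without overlap (log2 -1.36 ± 0.10, edgeR adjusted p = 2.37e-08). Adcy8, the other calcium-activated cyclase of forebrain, was at 17.8 to 42.7 and 6.92 to 15.9 CPM (-1.32 ± 0.17). Prkca, protein kinase C alpha, and the phosphodiesterase Pde4b were higher in CA3, by 1.91-fold and 1.65-fold.

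Of 22 rapid activity-regulated genes, 3 were higher in CA3 (Nr4a3, Dusp5 and Fosb) and 7 in CA1, against 15.5% and 10.7% of all genes. With the dentate covariate, Dusp5 went from 0.83 to 0.41 (edgeR adjusted p = 0.13) and Fosb from 0.59 to 0.29 (0.378), so neither was called. Egr1 was at 63.3, 213 and 421 CPM in CA1 and 47.5, 85.8 and 124 CPM in CA3 (log2 -1.07 ± 0.22, edgeR adjusted p = 0.00168). Arc and Nr4a1 were likewise higher in CA1, by -1.01 ± 0.29 and -1.29 ± 0.31. In the home cage these 3 genes had differences of -0.53, -0.37 and -0.59, none of which passed. Nr4a3, a nuclear receptor of the same family as Nr4a1, was higher in CA3 (1.02 ± 0.16), and in the home cage too (1.21, adjusted p = 0.0295). Fosb also lost its call on leaving out any 1 of 13 of the libraries. Fos itself had a difference of -0.00 ± 0.25 and did not pass.

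No gene's difference between CA3 and CA1 was called as dependent on condition (0 of 16987, 0.0%, edgeR's test of the interaction, smallest adjusted p = 0.429). At an unadjusted p under 0.05 there were 1963 of the 16987 genes, a share above the 0.05 that chance alone gives on average. DESeq2 called 9, and edgeR called 755 when CA3 context 1 was left out and 0 when any of the other 17 libraries was. Cetn3, a centrin, had the smallest p, with log2 differences of -0.44 in the home cage, 0.44 in context and 0.00 in fear. Mfge8, a secreted glycoprotein of astrocytes, had -0.11, -1.41 and -0.35. Its CPM in context were 94.4, 111 and 98.6 in CA1 and 50.2, 31.2 and 35.7 in CA3, whereas home cage values were 109, 84.1 and 67.5 in CA1 and 76.3, 103 and 65.6 in CA3. Zranb1, Ifi203-ps, Slc6a19 and Plb1 completed the 6 genes of smallest p, and none passed adjustment.

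Markers of other cell types differed between the dissected pieces and are given whole, with their members named after their values were seen. Their counts stand beside 15.5% of all genes called higher in CA3 and 10.7% higher in CA1. Ependymal markers were higher in CA3 in 5 of 5 (Foxj1, Ccdc153, Tmem212, Rarres2 and Dynlrb2), with sums of 2.38 to 16.5 CPM in CA1 and 12.3 to 54.9 CPM in CA3, and none was called in the home cage alone, where the median was 1.67. Oligodendrocyte markers were higher in CA3 in 4 of 9, among them Mog, Mal and Ermn (median 0.46), with overlapping sums of 3750 to 12500 and 5280 to 12700 CPM. Subiculum markers were higher in CA1 in 4 of 5 tested, among them Slc17a6, the vesicular glutamate transporter VGLUT2, at a median of 15.4 CPM in CA1 and 1.46 CPM in CA3 (log2 -3.49 ± 0.41, edgeR adjusted p = 6.49e-06), and the peptide Nts (-4.22 ± 0.90), along with Fn1 and Ly6g6e. Microglia markers were higher in CA1 in 7 of 9 (median -0.47, sums of 305 to 450 and 227 to 408 CPM). Astrocyte markers were higher in CA1 in 4 of 10, endothelial in 4 of 8, meningeal and mural in 5 of 9 with 1 higher in CA3 (Rgs5), blood in 3 of 5 and neocortical in 4 of 8. Mossy cell markers were higher in CA3 in 2 of 7 (Calcrl and Glp1r). Of these, Glp1r was near the floor, at medians of 0.0658 CPM in CA1 and 0.5 CPM in CA3. Choroid plexus markers were higher in CA3 in 2 of 8 (Folr1 and Enpp2), though the list median of -0.27 lay toward CA1. Thalamic markers were higher in CA1 in 3 of 6 (Lef1, Slc17a6 and Ramp3), and 0 of 6 oligodendrocyte precursor markers were called. Interneuron markers were called in 4 of 16, a share near that of all genes (4455 of 16987). Htr3a was higher in CA3 and Vip, Reln and Lamp5 were higher in CA1. Gad1 and Gad2, which mark inhibitory neurons in general, did not pass (0.06 ± 0.09 and 0.19 ± 0.12). Few of these calls were made in the home cage alone. There, Fn1, Slc17a6 (of the subiculum and thalamic lists) and 1 meningeal or mural marker were called, all higher in CA1. All other lists of this paragraph had 0 home cage calls. With the dentate covariate, 0 of 9 oligodendrocyte and 0 of 8 endothelial markers were called. No listed marker had 0 counts in either field, and the part of these cells in the differences above was not tested.

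Cytosolic ribosomal protein genes were lower in CA3 as a group. Of 75 genes, 52 were higher in CA1 and 0 in CA3, with a median of -0.42 and single values from -0.70 to -0.02. Their sum was 10100 to 21500 CPM in CA1 (median 12400) and 7800 to 15300 CPM in CA3 (median 9150), which overlapped. In the home cage alone 0 of 75 were called, with a median of -0.44, and with the GC and length correction over all 18 libraries 64 were. Of 13 mitochondrially encoded genes, 0 were called in either direction.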

How the data were processed

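Counts of reads per gene were deposited by the authors as whole numbers, 1 table and 36 files of single samples that hold the same values. Tools named in the submitters' processing notes are Trimmomatic 0.33, STAR 2.7.10b and HTSeq 2.0.1, with the genome build mm10. Libraries were stranded polyA libraries after TRIzol extraction, per the labels' protocols. Which strand setting and annotation HTSeq used is not given in the sources used here. Values of genes that overlap, lie antisense or have near-identical copies are therefore uncertain. Of 37315 genes, 35533 (95.2%) matched a GENCODE M21 symbol, and the rest held 0.21% of counts.

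The 18 CA1 and CA3 libraries (21915121 to 59356516 counts) were filtered with filterByExpr, scaled with TMM and fitted with edgeR 4.0.16 (R 4.3.3, limma 3.58.1), as robust quasi-likelihood models of condition plus field with 14 residual degrees of freedom. The biological coefficient of variation was 0.241, and 0.262 in the home cage alone (4 residual degrees of freedom). The threshold was 0.05 for p-values adjusted by Benjamini-Hochberg over all genes tested. CPM are on TMM-scaled totals, and log2 CPM, used for means and markers, has a prior count of 2. The standard error of a log2 difference is its size divided by the root of the test's F value. The procedure was tested on simulated data.

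Named genes were per direction, the 14 called genes of largest difference whose mean reached 4 log2 CPM and whose fields did not overlap, up to 4 called members per direction of each of 16 pathway lists (mean 1 log2 CPM or more), all CA3, CA1, CA2 and dentate granule markers, the 6 interaction genes of smallest p, and Cbln4 and Neo1. The text prints a part of these, and a few members that did not pass, or that complete a count of 5 or fewer, were named after their values were seen. Members and the 36 gene lists were chosen with earlier results of these data known. Of 727 list entries, 725 matched a gene. Alternatives were RLE size factors, no filter, DESeq2 1.42.0, a replicate block, all 36 libraries, a dentate granule covariate, single conditions, left-out libraries and a test against a 2-fold difference. Added after seeing the data were the 12 context and fear libraries together, offsets for GC content and length (per library, natural splines of 5 degrees of freedom, with a value for 98.8% of tested genes) and leaving out the 3 CA1 libraries of low CA1 marker sum. Figures were drawn with matplotlib 3.10.9 in Python 3.11.15. Some genes of the lists are not reported here by name.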

Additional observations from a re-analysis of the deposited data

Results flagged for a closer look

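In 96 groups of 9 libraries (marker list means and leading genes within a field), 6 had a library apart from the rest by Dixon's test at 95%, and chance flags about 1 in 20 groups. Of these, 4 were the library labelled CA1 home cage 2, as mean log2 CPM of a marker list: 2.07 for neocortical layers against 1.24 to 1.53 in the other 8 CA1 libraries, 4.21 for endothelial cells against 3.08 to 3.65, 3.62 for meninges and mural cells against 2.15 to 2.89, and 9.62 for mitochondrially encoded genes against 7.97 to 8.67. CA1 home cage 3 had oligodendrocyte precursor markers at 4.04 against 4.59 to 5.07. CA3 home cage 2 had subiculum markers at 0.93 against -0.18 to 0.34 in the other CA3 libraries. Home cage calls toward CA3 and CA1 were 245 and 163 with all 6 libraries, 95 and 68 without CA1 home cage 2, 214 and 93 without CA1 home cage 3, and 252 and 112 without CA3 home cage 2.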

How the results depend on the processing

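Of 143 called named genes, those named by the interaction test alone left out, 0 turned direction under the alternatives run over these libraries. The home cage alone was not among these, and there Plb1, one of the genes left out, was at -0.07 against 0.94 over 18 libraries. Calls ended for 1 gene with RLE size factors, 1 with GC and length offsets, 5 without the filter, 5 in the context and fear libraries, 14 with the dentate covariate, 18 in context alone, 48 in fear alone and 89 against a 2-fold difference. Genes higher in CA3 numbered 1545 in context alone, 839 in fear alone and 229 against a 2-fold difference, and genes higher in CA1 numbered 518 in fear alone, 47 against a 2-fold difference, 2758 without context 2 and home cage 2 of both fields and 3283 with GC and length offsets. The test against 2-fold asks for more by its construction, the single conditions hold fewer libraries, and for the other settings the cause was not tested. In the home cage alone, calls toward CA3 and CA1 were 393 and 270 without the filter, 614 and 417 with DESeq2, 720 and 431 as a contrast of the 18-library fit, and 412 and 398 with GC and length offsets. Without 1 library they ranged from 35 to 252 and from 12 to 126. Over all 18 libraries the ranges were 2089 to 2969 toward CA3 and 1539 to 2228 toward CA1, and 0 to 755 for the dependence on condition, for which DESeq2 called 9.

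The replicate block gave 2759 and 1887 calls over 18 libraries, 428 and 276 in the home cage alone and 0 for the dependence on condition, and ended the calls of Grik3 and Cacna1g. Same-numbered CA1 and CA3 libraries correlated at -0.305 to 0.63 over 8190 genes in their deviations from group means, and not every library correlated best with its own number. The numbers were therefore not taken as pairs, and the labels do not tie libraries to mice.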
